A study of Bos taurus with 36 samples.

Results

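The gene expression trend along fetal weight was examined in maternal blood, over the 16284 genes that reached 10 counts in 4 or more of the 10 maternal blood libraries, out of 35092 genes in the count table. These 10 libraries are part of a series of 36 libraries, and the other 26, from fetal organs, were not used here. Each blood library came from a different pregnant heifer, and each value below is set against the weight of the male fetus that this heifer carried on Day 42 of gestation. The question was which genes of the mother's blood had higher or lower levels beside heavier fetuses, and whether the same genes stood out when the embryo transfer group or the sequencing depth was taken into account.

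All 10 heifers had received a Day 7 embryo. In the synchronous group (ET_D7, n = 5) the transfer was made on Day 7 of the recipient's cycle, and in the asynchronous group (ET_D9, n = 5) on Day 9, which exposed the embryo to a uterus ahead of it. The ET_D7 heifers carried fetuses of 1.253, 1.293, 1.346, 1.355 and 1.37 g, and the ET_D9 heifers fetuses of 1.396, 1.517, 1.565, 1.659 and 1.69 g. Every ET_D9 fetus was therefore heavier than every ET_D7 fetus, so that weight and transfer group cannot be fully told apart. No non-pregnant heifer and no second sampling day were among the libraries. With 1 library per heifer, a p-value sets a slope against the spread between these 10 animals.

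Whole blood RNA comes from circulating leukocytes, platelets and red cells with their precursors. In cattle, the elongating conceptus secretes interferon tau, the signal by which pregnancy is recognized, and interferon-stimulated genes of circulating immune cells are known to respond to it in early pregnancy as well as to viral infection. In bulk samples, fewer cells of a type and less RNA per cell cannot be told apart.

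Library totals fell into 2 classes. The libraries beside the 1.293, 1.346, 1.396, 1.659 and 1.69 g fetuses held 40516154 to 40812354 counts, and those beside the 1.253, 1.355, 1.37, 1.517 and 1.565 g fetuses held 26602415 to 30393051. Both transfer groups were in both classes, with 2 ET_D7 and 3 ET_D9 libraries in the higher class and 3 and 2 in the lower. The mean fetal weight was 1.48 ± 0.184 g in the higher class and 1.41 ± 0.127 g in the lower (SD, n = 5 each). No 2 of the 10 libraries held identical counts.

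At an unadjusted p-value under 0.05, the level used here to describe genes, 737 of the 16284 genes had a positive slope on fetal weight (4.53%) and 841 a negative slope (5.16%). After Benjamini-Hochberg adjustment over all genes, 0 passed the 0.05 threshold in edgeR's quasi-likelihood test, and the smallest adjusted p-value was 0.0664. DESeq2 called 39 positive and 73 negative genes at an adjusted p-value under 0.05, and limma-voom 1 and 0. Scaling to library totals alone, with no correction for composition, gave 373 positive and 1216 negative genes at an unadjusted p-value under 0.05. The positive genes are called positive and the negative genes negative below in this sense only, and a slope is in log2 units per 0.1 g of fetal weight throughout.

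The median slope was 0.10 among the positive genes and -0.22 among the negative, against 0.0018 over all genes tested. The median over genes of the mean level was 49.1 CPM (counts scaled to the TMM-normalized library total) for the positive genes, 9.71 CPM for the negative and 15.5 CPM for all genes. Genes with only a LOC name or no symbol made up 7.46% of the positive genes and 24.0% of the negative, against 17.8% of all genes tested. The positive genes thus had the shallower slopes and, as a description, the higher levels and more often a gene symbol.

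**Figure D1:**
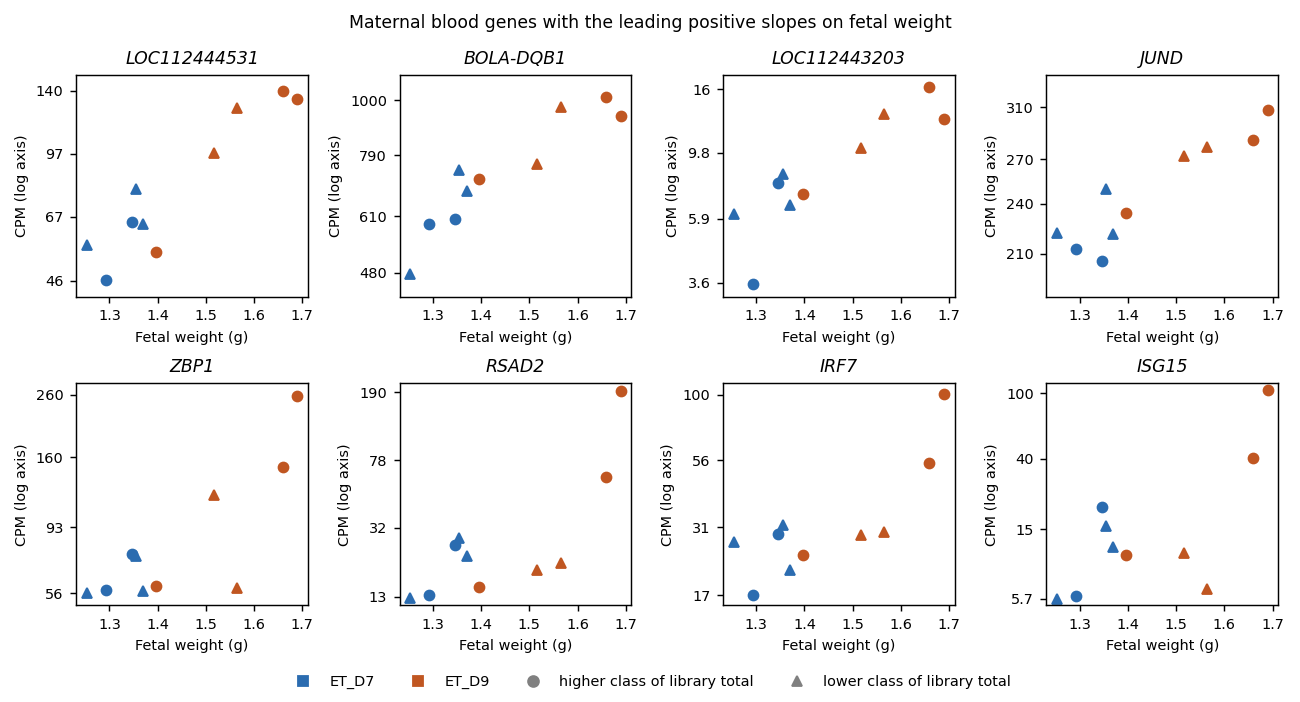
Levels of 8 genes with leading positive slopes in each of the 10 maternal blood libraries (CPM on a log axis) against fetal weight in g. Colour marks the transfer group and shape the class of library total. Every gene of the top row is higher beside each fetus of 1.517 g or more than beside any lighter one. LOC112444531 lies at 46.1 to 78.7 CPM up to 1.396 g and at 97.4 to 140 CPM from 1.517 g. The 4 interferon-stimulated genes of the bottom row are highest beside the 1.69 g fetus.

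The smallest p-value of all genes belonged to LOC112444531, annotated as a transcribed pseudogene of the ADP/ATP translocase family, whose members exchange ADP for ATP across the inner mitochondrial membrane. Its level was 56.8, 46.1, 64.8, 78.7 and 64.2 CPM in the ET_D7 libraries and 54.6, 97.4, 127, 140 and 133 CPM in the ET_D9 libraries, each in order of fetal weight. The groups overlapped through the 1.396 g library alone, which lay within the ET_D7 range. The slope was 0.35 (standard error 0.0440), and it stayed between 0.33 and 0.38 when each library was left out in turn. With transfer group in the model it was 0.43 (edgeR unadjusted p = 0.00034, adjusted p = 0.529), and with the class of library total it was 0.38 (edgeR adjusted p = 0.0124), the only gene of the 16284 (0.00614%) to pass the adjusted threshold with that covariate. Within the ET_D7 libraries the slope was 0.37 and within the ET_D9 libraries 0.45.

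The 3 ADP/ATP translocase genes tested were not positive. SLC25A6 ranged from 160 to 233 CPM with a slope of 0.02, SLC25A5 from 18.1 to 26.1 CPM with a slope of 0.03 and SLC25A4 from 11.9 to 28.2 CPM with a slope of -0.09. These 3 were named after their values were seen, and whether their slopes differ from that of LOC112444531 was not tested. Reads of a pseudogene and its parent gene can be assigned to either, so the level of LOC112444531 is uncertain to that extent.

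BOLA-DQB1, which encodes the beta chain of an MHC class II molecule that presents peptides to helper T cells, came next. It held 477, 591, 602, 743 and 679 CPM in the ET_D7 libraries and 715, 763, 972, 1013 and 935 CPM in the ET_D9 libraries, and only the 1.355 g library of ET_D7 lay above the lowest ET_D9 library. The slope was 0.21 (standard error 0.0318, edgeR adjusted p = 0.159), 0.20 with transfer group and 0.26 without the 2 heaviest fetuses. Other class II genes fell into distinct levels from animal to animal. BOLA-DQA2, an alpha chain, held 128 to 159 CPM in 5 libraries and 0 to 0.370 CPM in the other 5. BOLA-DQB, a beta chain, held 298 to 505 CPM in 5 libraries, 30.7 to 38.5 CPM in 3 and 1.02 to 1.91 CPM in 2. Their slopes of -0.22 and -0.26 did not pass an unadjusted p-value under 0.05. Class II genes are polymorphic, and whether reads were shared between BOLA-DQB1 and similar genes or depended on the haplotype of the heifer was not tested, so these levels are uncertain to that extent.

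LOC112443203, annotated in ARS-UCD2.0 as a variable segment of the kind that builds immunoglobulin or T cell receptor chains, was lower in level but similar in slope to LOC112444531. It held 6.11, 3.56, 7.74, 8.33 and 6.57 CPM in the ET_D7 libraries and 7.15, 10.2, 13.2, 16.3 and 12.7 CPM in the ET_D9 libraries. Again only the 1.396 g library of ET_D9 fell inside the ET_D7 range. The slope was 0.36 (standard error 0.0660, edgeR adjusted p = 0.272), 0.37 with transfer group, 0.38 with the class of library total and 0.41 without the 2 heaviest fetuses. Its unadjusted p-value stayed under 0.05 in all 10 fits that left out 1 library.

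Of the remaining leading positive genes outside the interferon response, JUND encodes a subunit of the AP-1 transcription factor. Its level was 206 to 250 CPM in ET_D7 and 234 to 307 CPM in ET_D9, with a slope of 0.12 (standard error 0.0232, edgeR adjusted p = 0.288). Among the leading positive genes reported here, GPANK1 was the only one whose groups did not overlap, with 90.8 to 105 CPM in ET_D7 and 111 to 140 CPM in ET_D9. A separation in this direction was shown by 0.639% of all genes and by 46 of the 737 positive genes. ENG, the TGF-beta co-receptor endoglin, had a slope of 0.22, and HLX, a homeobox transcription factor of blood cells, one of 0.23.

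LOC112449072 rested on a single heifer. It held 5135 counts (130 CPM) beside the 1.69 g fetus, 194 counts (7.31 CPM) beside the 1.517 g fetus and 0 to 23 counts in the other 8 libraries. Its slope was 2.29, and without the 1.69 g library the unadjusted p-value was 0.0583 (edgeR).

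Interferon-stimulated genes formed the group with the largest share of positive members. Of 38 such genes tested, 35 were positive and 0 negative, and the median slope was 0.25, against 4.53% positive and a median of 0.0018 over all genes. Every one of the 38 had a slope above 0. They included sensors of foreign nucleic acid (ZBP1, IFIH1, RIGI), transcription factors of the response (IRF7, IRF9, STAT2) and antiviral effectors (RSAD2, ISG15, MX2, OAS2, IFIT2, IFITM1). The steepest slopes were those of OAS2 (0.80), ISG15 (0.70), RSAD2 (0.70) and MX2 (0.65), and MX1 did not pass, with 0.16 (edgeR unadjusted p = 0.0681).

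In single libraries the levels were uneven. RSAD2, which encodes viperin, held 12.7, 13.3, 25.7, 28.1 and 22.0 CPM in the ET_D7 libraries and 14.8, 18.3, 20.1, 62.4 and 194 CPM in the ET_D9 libraries. ISG15, a ubiquitin-like protein conjugated to targets during the response, held 5.71, 5.91, 20.4, 15.6 and 11.6 CPM in ET_D7 and 10.5, 10.7, 6.51, 40.3 and 104 CPM in ET_D9. For both genes the 3 lighter fetuses of ET_D9 had levels within the ET_D7 range, and the 1.659 and 1.69 g fetuses stood above all others.

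The same held for the summed level of the 38 genes. It was 3888, 3802, 5658, 4311 and 4644 CPM in ET_D7 and 4377, 4282, 4001, 7176 and 11916 CPM in ET_D9. The 1.69 g library was the highest of the 10 for 35 of the 38 genes, by a median of 2.66-fold over the median of the other 9 libraries, with a maximum of 14.6-fold, while over all genes that ratio had a median of 1.001. The 1.659 g library exceeded the median of the 8 lighter ones by a median of 1.74-fold. Without the 1.69 g library, 10 of the 38 genes were positive, against 2.27% of all genes, with a median slope of 0.13. Without both of the heaviest 0 were positive and 1 was negative (4.34% and 4.4% of all genes), and the median was -0.04. With transfer group as a covariate, which compares heifers within a group, 35 were positive (4.15% of all genes) with a median slope of 0.44.

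Without the heaviest fetus, ZBP1 (slope 0.30) still had an unadjusted p-value under 0.05 in edgeR, and MX2 (0.23) and OAS2 (0.37) did not. Without the 2 heaviest, ISG15 turned to -0.05 and MX2 to -0.16, and ZNFX1, an RNA sensor that had a slope of 0.33 over all libraries, was at 0.01. HSH2D, an adaptor protein of lymphocytes among the leading positive genes, had a slope of 0.20 over all libraries and 0.17 without the 2 heaviest, still at an unadjusted p-value under 0.05.

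The proteasome, which degrades ubiquitinated proteins and supplies peptides for MHC class I, had 10 positive and 0 negative members of 40, with a median slope of 0.06, against 4.53% positive over all genes. The 3 with the smallest p-values are all induced by interferon. PSME2 and PSME1, the 2 chains of the PA28 activator, had slopes of 0.17 and 0.14, and PSMB10, a catalytic subunit of the immunoproteasome, one of 0.11. PSME1 held 260 to 336 CPM in ET_D7 and 264 to 446 CPM in ET_D9, with its 2 highest levels beside the 2 heaviest fetuses. Without those libraries 1 proteasome gene was positive (4.34% of all genes), and leaving out single libraries gave 6 (without the 1.293, 1.37, 1.396, 1.659 or 1.69 g library) to 14. TAPBP and TAP1, which load peptides onto MHC class I, had slopes of 0.08 and 0.09. They were the 2 positive genes of the 18 tested from the antigen presentation list (4.53% of all genes), which did not include BOLA-DQB1. With transfer group as a covariate 6 of the 18 were positive (4.15% of all genes), and without the 2 heaviest fetuses 0 were (4.34%).

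Genes of the protein-making machinery had mostly positive slopes of small size. Of 78 cytosolic ribosomal protein genes, 77 had a slope above 0, as 8293 of all 16284 genes did, with a median of 0.07. At an unadjusted p-value under 0.05, 9 were positive (4.53% of all genes) and 0 negative. RPS26 was the leading one (slope 0.15, standard error 0.0447) and held 109 to 169 CPM in ET_D7 and 133 to 222 CPM in ET_D9. The summed level of the list was 34832 to 57330 CPM in ET_D7 and 39913 to 59540 CPM in ET_D9, so that the groups overlapped. With transfer group as a covariate 32 were positive (4.15% of all genes) and the median slope was 0.16, and without the 2 heaviest fetuses 0 were positive (4.34% of all genes), 1 was negative and the median was 0.0086. Counts also depended on single libraries, with 35 positive without the 1.517 g library, 30 without the 1.355 g library, 1 without either the 1.659 or the 1.69 g library, and 2 to 6 without each of the others.

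Endoplasmic reticulum genes, which fold and move secreted proteins, had 9 positive and 0 negative members of 31 (4.53% of all genes positive), and 14 positive with transfer group as a covariate (4.15%). PDIA4, a disulfide isomerase, held 82.3 to 153 CPM in ET_D7 and 111 to 160 CPM in ET_D9 (slope 0.15). SDF2L1 had a slope of 0.17 and TXNDC5 one of 0.12, and the chaperones CALR and HSP90B1 slopes of 0.08 and 0.09. Antibody-secreting cells make heavy use of these genes, and of the 7 plasma cell markers tested MZB1 (slope 0.22) and XBP1 (0.08) were positive, while TNFRSF17, the plasma cell receptor BCMA, was negative (-0.14). These calls depended on single libraries, with 0 positive plasma cell markers without the 1.659 g library, 1 without the 1.253 or the 1.293 g library and 4 without the 1.37 or the 1.69 g library, and TNFRSF17 negative only in the fits without the 1.37, 1.396 or 1.517 g library. The summed plasma cell markers ranged from 374 to 709 CPM in ET_D7 and from 532 to 993 CPM in ET_D9, highest beside the 1.659 g fetus. The part of these cells in the folding genes was not tested. Without the 1.659 or the 1.69 g library 4 and 5 folding genes were positive, and without both 0 of 31 were (4.34% of all genes).

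Splicing factors were positive in 17 of 84 cases and negative in 0, against 4.53% positive over all genes, with a median slope of 0.04. Scaled to library totals only, 6 were positive and 2 negative, against 373 positive and 1216 negative of all 16284 genes. PCBP1, an RNA-binding protein, held 132 to 159 CPM in ET_D7 and 158 to 192 CPM in ET_D9 (slope 0.09), and only the 1.355 g library reached the ET_D9 range. CHERP and DHX38 both had slopes of 0.09. The count was 7 without the 1.69 g library, 9 without the 1.659 g library, 4 without both and 11 without the 1.293 g library. SNRPA1, SF3B2 and PRPF8, components of the spliceosome's small nuclear ribonucleoproteins, had slopes of 0.09, 0.06 and 0.04.

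Respiratory chain genes, which make ATP in mitochondria, had mostly positive slopes of small size. A slope above 0 was held by 34 of 40 nuclear subunits of complexes II to V and 28 of 36 of complex I. Over all genes, 8293 of 16284 had one. Of complexes II to V, 6 of 40 were positive and 0 negative, against 4.53% positive over all genes, with a median slope of 0.03. The count was 2 without the 1.659 or the 1.69 g library. Of complex I, 2 of 36 were positive and 1 negative, with a median of 0.04, a share near the 4.53% of all genes, and 1 was positive without the 1.69 g library. With transfer group as a covariate 11 and 5 were positive (4.15% of all genes), and without the 2 heaviest fetuses 0 and 0 were (4.34%), with medians of -0.0075 and -0.0036. ATP5ME and ATP5F1D, subunits of ATP synthase, had slopes of 0.15 and 0.10, and COX5B of cytochrome c oxidase one of 0.07. In complex I, NDUFB11 (0.12) and NDUFA10 (0.08) were positive, whereas NDUFC2 was negative (-0.10). The 13 mitochondrially encoded genes gave 0 positive and 0 negative members, with a median slope of 0.0085 that became -0.0083 when only library totals were used for scaling. Mitochondrial ribosomal protein genes had 7 positive and 1 negative of 76 (4.53% and 5.16% of all genes), and MRPS33 (0.11), MRPL35 (0.12) and MRPS26 (0.11) were among the positive. Their count of positive genes was 14 with transfer group (4.15% of all genes) and 3 without the 1.69 g library (2.27%). It was 2 without the 1.659 g library, where 569 of all 16284 genes were positive. Without both libraries 1 was positive and 2 were negative (4.34% and 4.4% of all genes).

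**Figure D2:**
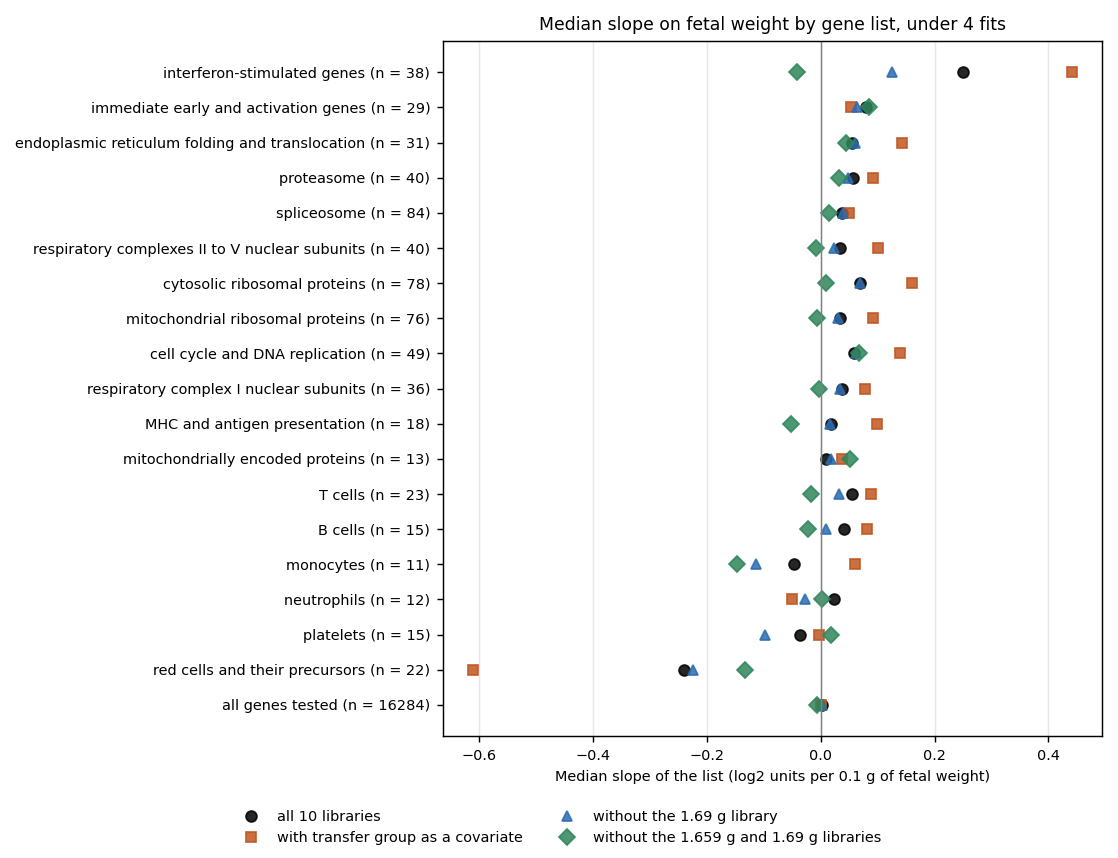
Median slope on fetal weight (log2 units per 0.1 g) of 18 gene and cell type marker lists and of all genes tested, with the number of genes tested in parentheses, in the fit over all 10 libraries, with transfer group as a covariate, without the 1.69 g library and without the 2 heaviest fetuses. Interferon-stimulated genes move from 0.25 to -0.04 when the 2 heaviest are left out, and red cell genes lie at -0.24 in the fit over all libraries and at -0.61 with transfer group.

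Immediate early and activation genes, transcribed within minutes of stimulation, had 9 positive and 0 negative members of 29, with a median slope of 0.08, against 4.53% positive over all genes. TNFAIP3, an inhibitor of NF-kappaB signalling, held 35.4, 35.1, 38.0, 44.2 and 39.0 CPM in ET_D7 and 51.8, 56.9, 49.9, 49.8 and 54.9 CPM in ET_D9. IER5 held 246, 242, 262, 296 and 233 CPM in ET_D7 and 336, 330, 344, 314 and 365 CPM in ET_D9. Neither gene's groups overlapped, a separation in this direction shown by 0.639% of all genes and by 46 of the 737 positive genes. Both genes were chosen by their slope on weight, which itself separates the groups. The slopes of TNFAIP3 and IER5 were 0.14 and 0.12 on weight alone and 0.03 and 0.02 with transfer group, and they were 0.20 and 0.08 within the ET_D7 libraries and 0.0014 and 0.02 within the ET_D9 libraries.

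Other members of that list included CD69, an early activation marker of lymphocytes (slope 0.16), GADD45B (0.16), SOCS1 (0.19) and MYC (0.10). In contrast to the interferon-stimulated genes, 8 of them were positive without the heaviest fetus (2.27% of all genes) and 7 without the 2 heaviest (4.34%), while 3 were positive with transfer group as a covariate (4.15%). The heat shock gene HSPA1A also separated the groups (0.639% of all genes), with 154 to 220 CPM in ET_D7 and 224 to 278 CPM in ET_D9. Its slope was 0.10 on weight alone and 0.04 with transfer group. DNAJB1, its co-chaperone, had a slope of 0.10. These were the 2 positive genes of 15 cytosolic heat shock genes (4.53% of all genes), with 0 negative.

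The remaining functional lists had few called members in the fit over all 10 libraries. Cell cycle genes had 3 positive and 0 negative of 49, near the 4.53% of all genes, namely CCNB2 (slope 0.27), SPC24 (0.19) and MCM4 (0.08), and 44 of the 49 had a slope above 0, as 8293 of all 16284 genes did. The count was 1 without the 1.293 or the 1.565 g library, 2 without the 1.396, 1.659 or 1.69 g library, 5 without the 1.253, 1.346 or 1.355 g library and 7 without the 1.517 g library. Glycolysis genes had 1 positive of 18 (ENO1, 0.08), glucocorticoid-responsive genes 1 of 10 (DDIT4, 0.13), and Toll-like receptors 1 positive (TLR4, 0.11) and 1 negative (TLR6, -0.07) of 9. Over all genes 4.53% were positive and 5.16% negative. Numbered zinc finger genes had 11 positive and 8 negative of 278, below these shares. ZNF646 (0.09), ZNF281 (0.08) and ZNF875 (-0.75) had the smallest p-values of that list. Of 22 histone genes, H1-10 was positive (0.09), near the share of all genes. Without the 2 heaviest fetuses 7 of the 18 glycolysis and 5 of the 22 histone genes were positive, against 4.34% of all genes. Their median slopes were then 0.10 and 0.26. In that fit 2 cell cycle, 1 glucocorticoid-responsive, 0 Toll-like receptor and 2 zinc finger genes were positive.

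Transcripts of a fixed list of placental genes were at or near 0 counts, apart from 1 gene of uncertain identity. Of 34 pregnancy-associated glycoprotein and trophoblast hormone genes in the table, which the ruminant trophoblast secretes into the mother, 28 had 0 counts in all 10 libraries. The highest count of any of them was 14 in 1 library, apart from the gene under the symbol PAG1. That gene held 383 to 469 CPM and had a slope of -0.03. The symbol also names an adaptor protein of lymphocytes, and which product this gene encodes was not tested. The libraries totalled 26602415 counts or more.

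Defining markers of T cells (CD3E), B cells (MS4A1), monocytes (CD14), neutrophils (CXCR2) and platelets (PPBP) had counts in all 10 libraries, and none of these 5, named after their values were seen, was positive or negative. T cell markers were positive in 3 of 23 cases (4.53% of all genes), CD3D (0.12), GATA3 (0.10) and LAT (0.08), and their summed level was 3061 to 4268 CPM in ET_D7 and 3399 to 4663 CPM in ET_D9. The count was 1 without the 1.293, 1.346 or 1.69 g library and 5 without the 1.355, 1.517 or 1.565 g library, and without the 2 heaviest it was 0 with a median slope of -0.02. None of the 12 NK cell, 12 neutrophil, 6 immature granule, 6 eosinophil and basophil or 7 dendritic cell markers was positive or negative. B cell markers had EBF1 negative (-0.10) of 15 (5.16% of all genes), and of 15 platelet markers 1 was positive (4.53%) and 0 negative. For monocytes all 11 markers had a slope below 0, as 7991 of all 16284 genes did, with a median of -0.05. VCAN (-0.16) and CD163 (-0.20) were negative, against 5.16% of all genes. The count was 0 without the 1.253, 1.346 or 1.659 g library and 3 without the 1.69 g library. With transfer group the median was 0.06, with 1 positive and 0 negative (4.15% and 3.93% of all genes). VCAN held 219 to 377 CPM in ET_D7 and 138 to 274 CPM in ET_D9, and with transfer group its slope was -0.06 while that of CD163 became 0.06.

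Red cell genes had the lowest median slope of the lists with more than 1 gene, -0.24, with 2 negative and 0 positive of 22 (5.16% and 4.53% of all genes). Of the 22, 3 had a slope above 0, among them GATA1, a transcription factor of red cell precursors named here after its values were seen, with 0.16. HBA and HBA1, which encode alpha globin, had slopes of -0.88 and -0.79, and HBB, the beta chain, one of -0.70 that did not pass (edgeR unadjusted p = 0.0502). HBA held 119, 12.8, 55.2, 2.0 and 8.18 CPM in ET_D7 and 67.3, 12.3, 30.7, 2.23 and 2.30 CPM in ET_D9. The groups overlapped entirely, and within each group the lightest fetus went with the highest level. The summed level of the list was 10123 CPM beside the 1.253 g and 4602 CPM beside the 1.396 g fetus and 388 and 512 CPM beside the 2 heaviest, and HBB made up most of it, with 9354 CPM beside the 1.253 g fetus. With transfer group as a covariate 11 of the 22 were negative (3.93% of all genes) and the median slope was -0.61. The count ranged from 0 without the 1.659 g library to 10 without the 1.565 g library, and was 7 and 8 without the 1.293 and 1.355 g libraries and 5 without the 1.517 g library. Haemoglobin genes took 0.0204% to 0.981% of the counts.

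**Figure D3:**
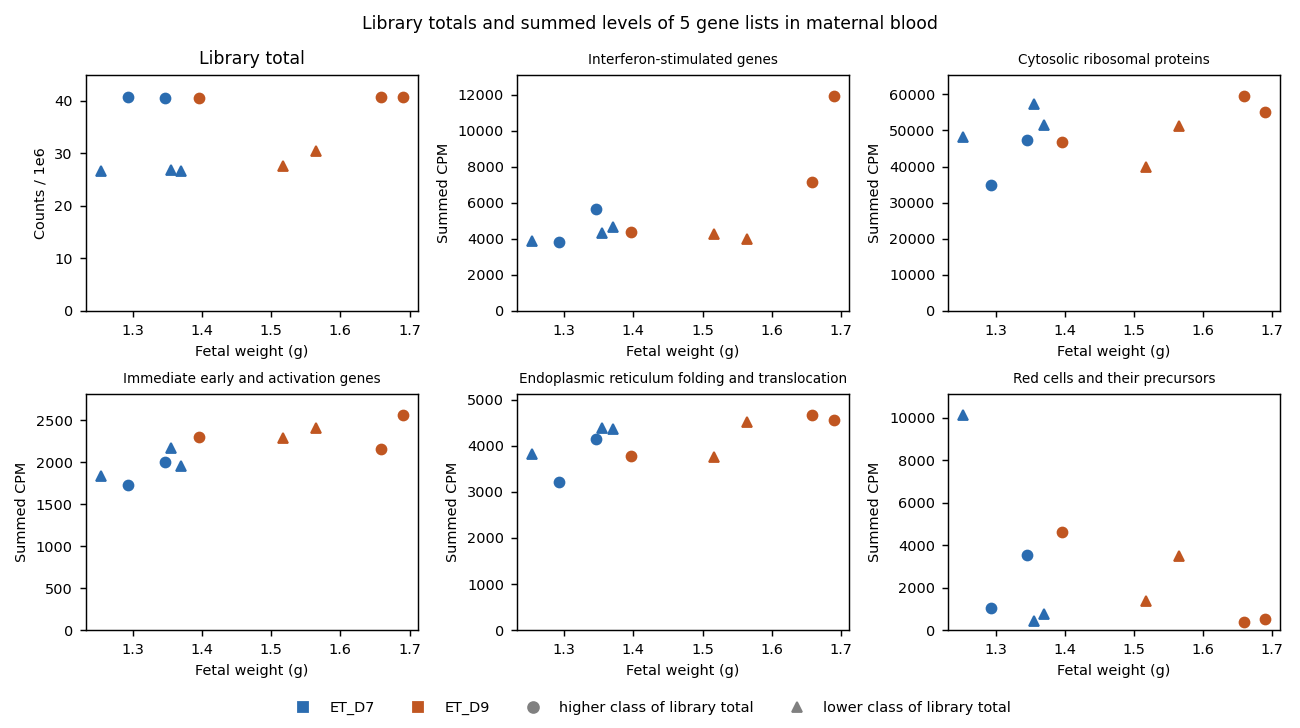
Library total (counts, scaled by 1e6) and the summed CPM of 5 gene lists in each of the 10 maternal blood libraries, against fetal weight in g, with all vertical axes from 0. Colour marks the transfer group and shape the class of library total. The interferon-stimulated genes sum to 11916 CPM beside the 1.69 g and 7176 CPM beside the 1.659 g fetus and to 5658 CPM or less beside all others, and the red cell genes are highest, at 10123 CPM, beside the 1.253 g fetus.

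The negative genes were led by LOC107131356, annotated as a long noncoding RNA that neighbours the microRNA genes MIR29A and MIR29B-1 in ARS-UCD2.0. It held 38.3, 52.0, 39.8, 24.9 and 33.7 CPM in the ET_D7 libraries and 33.1, 27.6, 18.1, 16.0 and 14.9 CPM in the ET_D9 libraries. Only the 1.396 and 1.517 g libraries of ET_D9 reached into the ET_D7 range. The slope was -0.37 (standard error 0.0534, edgeR adjusted p = 0.144), -0.42 with transfer group and -0.36 without the 2 heaviest fetuses.

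CHST11, a sulfotransferase that modifies chondroitin, had almost the same course. Its levels were 41.8, 62.0, 47.3, 33.1 and 37.6 CPM in ET_D7 and 34.3, 36.7, 20.5, 18.3 and 17.2 CPM in ET_D9, with a slope of -0.36 (standard error 0.0585, edgeR adjusted p = 0.195). Both genes were lowest beside the 3 heaviest fetuses.

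SHLD2 belongs to the shieldin complex, which protects broken DNA ends and directs their joining, a step of immunoglobulin class switching. It held 38.9, 37.4, 33.7, 32.4 and 28.8 CPM in ET_D7 and 29.0, 29.4, 23.8, 23.7 and 23.6 CPM in ET_D9, a slope of -0.16 (standard error 0.0290, edgeR adjusted p = 0.272). The groups overlapped only through the 1.37 g library. A second shieldin gene, SHLD1, named here after its values were seen, held 23.8, 31.3, 26.1, 20.0 and 20.2 CPM in ET_D7 and 20.3, 18.7, 15.2, 14.9 and 16.6 CPM in ET_D9, a slope of -0.19 (edgeR adjusted p = 0.358).

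Another 4 of the leading negative genes had groups that did not overlap, as 0.645% of all genes and 73 of the 841 negative genes did in this direction. Genes chosen by their slope on weight tend to separate the groups, because weight itself does. BCL2, the inhibitor of apoptosis, held 37.5 to 47.3 CPM in ET_D7 and 24.8 to 34.6 CPM in ET_D9 (slope -0.16). CLIC2, a chloride intracellular channel protein, held 3.88 to 7.09 CPM and 1.18 to 3.73 CPM (slope -0.45). NIPAL1, a magnesium transporter, held 51.4 to 60.4 CPM and 39.7 to 51.1 CPM (slope -0.11). The gene with the identifier 104968751, which has no symbol, held 12 to 52 counts in ET_D7 and 3 to 14 counts in ET_D9 (slope -0.83).

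The other leading negative genes had diverse functions. KCNK13, a potassium channel, held 13.3 to 31.4 CPM in ET_D7 and 10.3 to 18.7 CPM in ET_D9 (slope -0.33), and PNPLA7, a lysophospholipase, had a slope of -0.30. FARS2, the mitochondrial phenylalanyl-tRNA synthetase, held 23.2 to 41.1 CPM in ET_D7 and 18.3 to 28.5 CPM in ET_D9 (slope -0.20). ARL15, a small GTPase, had a slope of -0.30, MYH3, an embryonic myosin, one of -0.37, and C14H8orf89, a gene known only by its position, one of -0.16.

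ABCA13, a large membrane transporter, was much more variable, with 65.9, 23.8, 82.1, 25.0 and 14.8 CPM in ET_D7 and 29.5, 3.43, 15.2, 5.39 and 4.25 CPM in ET_D9. Its slope of -0.87 was the steepest of the leading negative genes that had at least 2 CPM in every library. JSRP1, with a slope of -2.0, held 286 counts beside the 1.293 g fetus and 0 to 38 in the other libraries.

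XIST, the RNA that silences 1 X chromosome in female cells and the only nuclear long noncoding RNA of that list that could be tested, was also negative (slope -0.14, standard error 0.0453). It ranged from 567.7 to 865 CPM in ET_D7 and from 443 to 762 CPM in ET_D9, so that the groups overlapped widely.

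**Figure D4:**
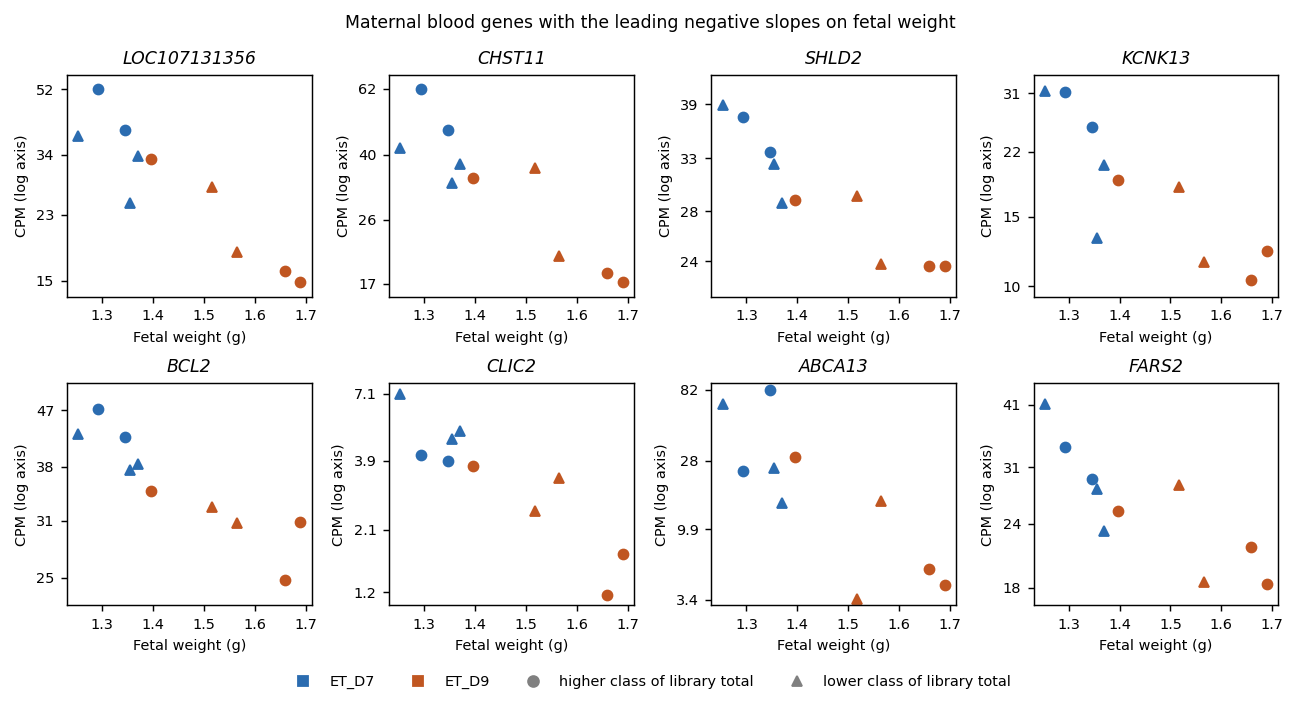
Levels of 8 genes with leading negative slopes in each of the 10 maternal blood libraries (CPM on a log axis) against fetal weight in g, with colour for the transfer group and shape for the class of library total. LOC107131356 and CHST11 lie at 14.9 to 20.5 CPM beside the 3 heaviest fetuses, below all the other libraries, and ABCA13 spreads from 3.43 to 82.1 CPM.

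With transfer group as a covariate, 675 genes were positive (4.15%) and 640 negative (3.93%), and 0 passed the adjusted threshold in edgeR (smallest adjusted p-value 0.529). These were largely other genes. Of the 737 positive genes, 255 were positive again, which was 34.6% of the first list and 37.8% of the second, and of the 841 negative genes 195 were negative again, 23.2% and 30.5%. Over all genes the slopes with and without transfer group had a Pearson r of 0.45, given as a description since the 2 fits share all 10 libraries. RSAD2 (1.17) and ZBP1 (0.58) were among the genes with steeper slopes with the covariate, and GPANK1, HLX, BCL2, NIPAL1, JSRP1 and the gene 104968751 were the leading genes that no longer reached an unadjusted p-value under 0.05.

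With the class of library total as a covariate, 718 genes were positive (4.41%) and 875 negative (5.37%). Of the first lists, 593 positive and 730 negative genes were called again, and the slopes with and without the covariate had an r of 0.98 over genes. The class itself was called for 359 genes with higher levels in the higher class (2.20%) and 255 with lower levels (1.57%), and for 0 after adjustment (smallest adjusted p-value 0.993, edgeR). Of these 614 genes, 62 were also among the positive or negative genes for weight. The interferon-stimulated genes had 30 positive members with this covariate and a median slope of 0.22, and both of the heaviest fetuses were in the higher class.

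**Figure D5:**
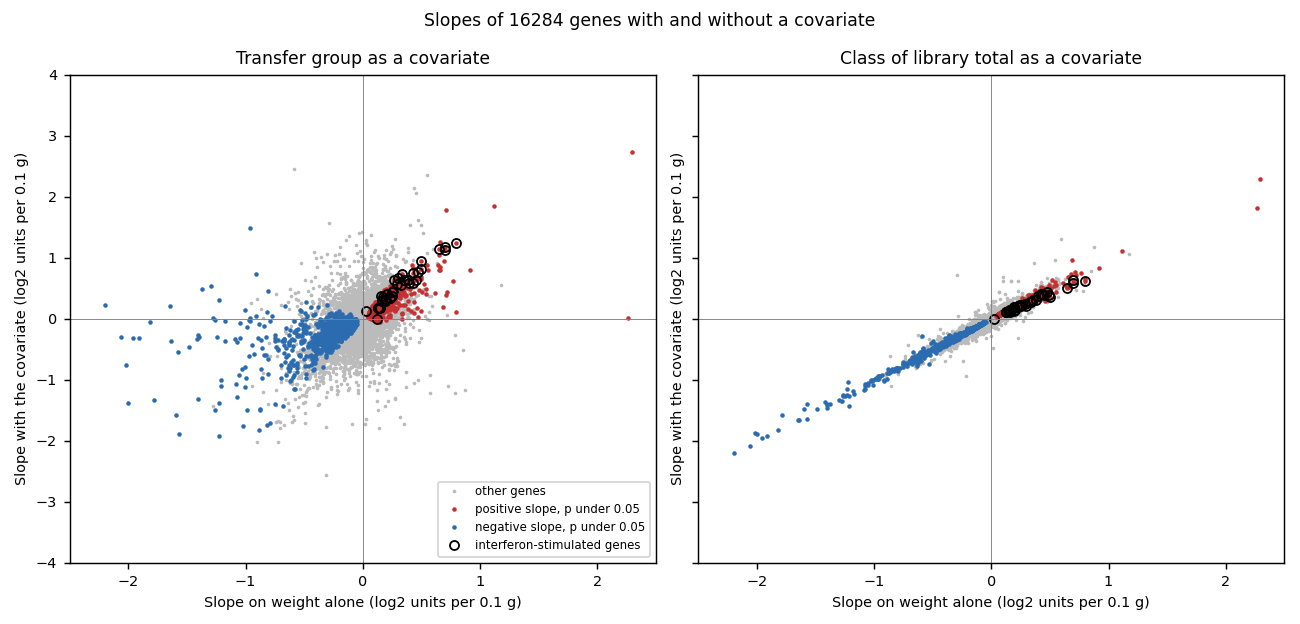
Slope of each of 16284 genes on fetal weight alone (horizontal axis) against its slope with transfer group (left) or the class of library total (right) as a covariate, all in log2 units per 0.1 g. Red and blue mark the 737 positive and 841 negative genes and open circles the interferon-stimulated genes, and 8 genes lie beyond the axes. The points spread widely on the left (r = 0.45) and follow a narrow band on the right (r = 0.98).

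A difference in slope between the transfer groups was called for 456 genes whose slope in ET_D9 minus that in ET_D7 was above 0 (2.80%) and 375 for which it was below 0 (2.30%) at an unadjusted p-value under 0.05, and for 0 after adjustment (smallest adjusted p-value 0.789, edgeR). Without the 1.293 g library ASS1 and OSBP2 passed the adjusted threshold, and without the 1.659 g library LOC107131803 did.

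Only a minority of the genes stood whichever library was left out. In all 10 fits that omitted 1 library, 139 of the positive and 250 of the negative genes had an unadjusted p-value under 0.05. Of these, 58 and 86 also reached it both with transfer group and with the class of library total as a covariate, among them LOC112444531, BOLA-DQB1, LOC112443203, JUND, ZBP1, LOC107131356, CHST11, SHLD2, KCNK13 and FARS2. Interferon-stimulated genes of the list made up 10 of the 58. The count of positive genes depended most on the heifer with the 1.69 g fetus. Without her library 370 genes were positive (2.27%), of which 264 belonged to the 737, and without the 2 heaviest fetuses 706 were positive (4.34%), of which 109 belonged to them. The negative genes numbered 658 (4.04%) and 717 (4.4%) in these fits, of which 455 and 278 belonged to the 841.

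The study selected 571 blood genes as a cluster that increased with fetal weight in these same samples, so that their direction is not independent evidence. Of these, 529 were tested. The 737 positive genes included 307 of them and 430 others, and the 307 became 158 with transfer group as a covariate, 148 without the heaviest fetus and 45 without the 2 heaviest (4.15%, 2.27% and 4.34% of all genes). In all, 7 of the 38 interferon-stimulated genes belonged to the cluster, as 529 of all 16284 genes tested did. Of the 35 genes that the study shared between fetal heart and maternal blood, also chosen on these samples, 20 were positive here and all 35 had a slope above 0, with a median of 0.08. This became 9 with transfer group as a covariate, 8 without the heaviest fetus and 2 without the 2 heaviest. EIF2AK2, itself induced by interferon, was among the 20, with a slope of 0.25.

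Of 5 measures of library composition, none passed the test for a relation to fetal weight across the 10 libraries, and with so few libraries a moderate relation could be missed. The closest was the haemoglobin share (Pearson r = -0.49, permutation p = 0.138, adjusted p = 0.681; Spearman rho = -0.48, permutation p = 0.165, adjusted p = 0.557), with r = -0.35 when the 2 libraries farthest from the median weight were left out. The library total had r = 0.29 (permutation p = 0.414, adjusted p = 0.689; rho = 0.27, permutation p = 0.445, adjusted p = 0.557), and r = -0.20 without those 2 libraries. The number of genes with a count had r = -0.38 (permutation p = 0.272, adjusted p = 0.681; rho = -0.39, permutation p = 0.263, adjusted p = 0.557), the share of the 10 most abundant genes r = -0.13 (permutation p = 0.758, adjusted p = 0.849; rho = 0.28, permutation p = 0.427, adjusted p = 0.557) and the mitochondrial share r = 0.07 (permutation p = 0.849, adjusted p = 0.849; rho = 0.18, permutation p = 0.631, adjusted p = 0.631). Without the 2 libraries farthest from the median weight, these r were -0.39, -0.21 and 0.08. The mitochondrial share itself was 2.14% to 3.29% of the counts.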

How the data were processed

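RNA of maternal blood collected in Tempus tubes was prepared with a stranded SMARTer kit and sequenced in pairs on NovaSeq. The authors trimmed reads (Trimmomatic), aligned them to ARS-UCD1.3 with STAR 2.7.0b and deposited whole-number gene counts from featureCounts (Subread 2.0.3). The counting options for strand and multi-mapping are not given in the sources used here. Symbols came from RefSeq (ARS-UCD2.0), with 31630 of 35092 identifiers matched.

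Genes that reached 10 counts in 4 libraries or more were kept, normalized by TMM and tested with edgeR 4.0.16 (quasi-likelihood, linear term for weight, R 4.3.3), with Benjamini-Hochberg adjustment over all genes. The biological coefficient of variation was 32.1%, which with 10 libraries limits small slopes. Library measures were tested with 100000 permutations of weight (two-sided). Alternatives included DESeq2 1.42.0, limma 3.58.1 and mgcv 1.9.3. Scripts were tested on simulated data. Named genes were the 15 smallest p-values in each direction, 2 chosen markers and the 3 smallest p-values of each list where under 0.05, with exceptions stated. Of these, 2 genes are not reported here and were not replaced. Members and lists were chosen with earlier results of these data known. Promoter sequences were not used here.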

Additional observations from a re-analysis of the deposited data

Results flagged for a closer look

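Levels of the named genes and 4 library measures were examined for single libraries far from the others within each transfer group (166 groups of 5), where chance flags about 1 in 20 groups, and 7 were found. LOC112449072 reached 130 CPM beside the 1.69 g fetus, against 7.31 CPM in the next ET_D9 library. RSAD2 reached 194 CPM in the same library, against 62.4 CPM. JSRP1 was at 6.65 CPM beside the 1.293 g fetus, with the next ET_D7 library at 1.43 CPM. The gene 104968751 was highest in ET_D9 beside the 1.396 g fetus, at 0.352 CPM against 0.151 CPM. Beside the 1.355 g fetus, CHERP (69.1 CPM against 59.8 CPM) and DNAJB1 (43.1 CPM against 35.3 CPM) were the highest of ET_D7. HSPA1A was lowest beside the 1.253 g fetus, at 154 CPM against 203 CPM. No gene's slope differed between the transfer groups after adjustment (edgeR, smallest adjusted p-value 0.789, with 456 differences, ET_D9 minus ET_D7, above 0 and 375 below 0 before adjustment at p under 0.05).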

How the results depend on the processing

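Over 28 alternatives, 1774 of 2208 slopes of the 79 named genes kept their direction and an unadjusted p-value under 0.05, 420 kept the direction alone and 14 reversed. The spline and the additive model have no direction of their own and were given that of the linear slope, so they could not reverse. Another alternative compared ET_D9 with ET_D7 in place of weight, so its value is a group difference. Among the 29 leading genes, 742 of 809 kept both, and the 2 reversals were those of ISG15, to -0.053 without the 2 heaviest fetuses and to -0.049 within the lower class of library total. The other reversals were those of LAT without the 2 heaviest (-0.035) and within the lower class (-0.053), RPL36 (-0.015) and MRPS26 (-0.018) within the lower class, DHX38 (-0.013), ZNF875 (0.066) and H1-10 (-0.073) within ET_D7, HSPA1A (-0.0021), TLR4 (-0.0039), VCAN (0.0027) and CD163 (0.082) within ET_D9, and CD163 with transfer group (0.060). The cause was not tested for these.

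At an unadjusted p-value under 0.05, the 737 positive genes became 373 with library totals only, 2125 with the negative binomial additive model, 326 within ET_D7 and 389 within the lower class. The 841 negative genes became 1423 with no filter, 1937 with the additive model, 463 within ET_D7, 493 within ET_D9 and 327 within the lower class. The fits within a group or class hold 5 libraries. Genes called by the spline or the additive model were counted by the sign of the linear slope, also where their course was not linear. Leaving out 1 library gave 370 (without the 1.69 g library) to 905 positive genes and 560 (without the 1.37 g library) to 1449 (without the 1.253 g library) slope differences between the transfer groups. After adjustment, the 0 positive genes became 39 with DESeq2, 20 with the spline, 943 with the additive model, and 1 each with limma-voom, the class covariate, no filter and the filter on every library, and the 0 negative genes 73 with DESeq2, 1 with the spline and 829 with the additive model. Leaving out 1 library gave 0 to 1 in each direction. The other counts over all genes stayed within 1.5 times. With library totals only, the positive members became 6 of 40 in the proteasome and 4 of 31 folding genes. They became 3 of 78 cytosolic ribosomal protein genes and 2 of 40 in complexes II to V. Interferon-stimulated genes had 33 of 38 positive and immediate early genes 9 of 29. Over all 16284 genes, 373 were positive in that fit. No paired analysis was possible because each heifer gave 1 blood library. Genes under 10 counts in most libraries, and slopes small against a variation of 32.1% between heifers, cannot be resolved at this depth and number of animals.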
